A study of Mus musculus with 24 samples.

Results

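Chemokines are small secreted proteins that guide leukocytes along a gradient, and a tumour cell that makes them can call in monocytes, T cells or neutrophils. Members are sorted by the spacing of the first cysteines of the mature protein: adjacent in the CC ligands, separated by a single residue in the CXC ligands and by a longer gap in Cx3cl1. Most are released at once, whereas Cx3cl1 and Cxcl16 are made as membrane-tethered proteins whose ectodomain is cut off by the proteases ADAM10 and ADAM17.

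The ligands described here are 9 genes of the mouse, Ccl2, Ccl5, Ccl7, Cxcl1, Cxcl5, Cxcl10, Cxcl12, Cxcl16 and Cx3cl1, picked by symbol among the 13915 genes of the batch 2 count table and by the same Ensembl identifier among the 55471 genes of the batch 1 table. They were measured in derivatives of EO771 (spelled E0771 in the labels), a mammary carcinoma line that arose spontaneously in a C57BL/6 mouse. X2 was the vector control, transduced with the pLNCX2 retroviral vector and tdTomato. CCR7 carried mouse Ccr7 cDNA, which encodes the receptor that draws cells towards lymphatic vessels and lymph nodes, and per the study's methods it was the PDPN-negative sort of those cells. CCR7-PDPN was sorted from CCR7-transduced cells for podoplanin (PDPN), a mucin-like surface glycoprotein of lymphatic endothelium and lymph node stroma, and X2-PDPN was sorted in the same way from vector control cells. PDPN arose spontaneously in both, no clone was picked, all 4 derivatives carried tdTomato, and all were grown in culture without other cells.

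There were 24 libraries, 4 technical replicates for each derivative in a batch. X2 and CCR7-PDPN were sequenced in both batches, CCR7 in batch 1 and X2-PDPN in batch 2. P-values therefore describe the spread between libraries of a culture and not between independent derivations. A library held from 22275468 to 33395418 counts in batch 1 and from 22788542 to 35721027 in batch 2. Ccr7 averaged between 2800 and 3180 counts per 1000000 library counts (CPM) in the transduced groups and at most 0.66 CPM in the others, and Pdpn averaged between 24.6 and 25.6 CPM in the groups sorted for PDPN and at most 0.413 CPM in the others, so both followed the labels. Of the tumour cell markers, Krt8, Vim and Twist1 were well expressed, whereas the epithelial markers Krt18, Epcam and Cdh1 stayed below 1 TPM (counts divided by gene length and put on the same scale) in each batch 1 group. Of 7 leukocyte markers, Ptprc had 0 to 4 reads in a batch 1 library and Cd3e had 0 in all of them. Lyz2 and Cd79a reached 1 TPM in a group mean and differed between derivatives, as given further below.

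Among the detected ligands, the coding sequence at the cysteine motif shows which class each belongs to. It is given for the ligands on which the results turn, from GENCODE transcripts on GRCm38, with the codons from the first to the second cysteine of the motif in capitals. All of these stretches lie in exon 2 of the gene.
Ccl2 (chr11:82036494-82036529, + strand): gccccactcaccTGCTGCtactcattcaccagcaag
Ccl7 (chr11:82046526-82046561, + strand): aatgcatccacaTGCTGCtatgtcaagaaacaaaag
Ccl5 (chr11:83529224-83529259, − strand): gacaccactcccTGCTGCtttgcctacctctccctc
Cxcl10 (chr5:92348163-92348201, − strand): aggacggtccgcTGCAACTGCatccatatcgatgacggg
Cx3cl1 (chr8:94778039-94778083, + strand): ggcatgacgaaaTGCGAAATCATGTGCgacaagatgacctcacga

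The EO771 derivatives made few of these ligands in quantity, and the mixture was mostly Ccl2, the main attractant of CCR2-positive monocytes. In the batch 1 libraries of X2, the levels per gene length were 266 ± 6.62 TPM for Ccl2, 32.9 ± 1.28 for Ccl7, which uses the same receptor, and 9.86 ± 1.13 for Ccl5, an attractant of T cells and monocytes (SD, n = 4). Cxcl10, the interferon-inducible ligand of CXCR3, followed at 4.12 ± 0.314 TPM, and Cx3cl1, also called fractalkine, at 3.11 ± 0.21 TPM. The libraries of neighbours in this order did not overlap in X2 of batch 1. In CCR7 and CCR7-PDPN of batch 1, by contrast, Ccl7 (8.31 ± 1.37 and 7.98 ± 1.85 TPM) and Ccl5 (7.65 ± 1.55 and 6.83 ± 0.869 TPM) lay within each other's spread.

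Over a list of 38 ligands, namely the 9 and 29 others, Ccl2 made up 82.5% of the summed TPM in the batch 1 libraries of X2 and 82.6% in those of batch 2. The summed level was 322 ± 8.24 TPM in X2, 177 ± 11.9 in CCR7 and 118 ± 2.26 in CCR7-PDPN of batch 1. In batch 2, X2 reached 311 ± 3.58 TPM, X2-PDPN 253 ± 12.8 and CCR7-PDPN 111 ± 6.04. CCR7-PDPN had the lowest total in both batches. X2-PDPN had the smallest share of Ccl2, at 75.8 ± 0.281%, and without Ccl2 the list summed to 61.1 ± 3.68 TPM there against 54.1 ± 1.92 in X2 of the same batch.

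**Figure D1:**
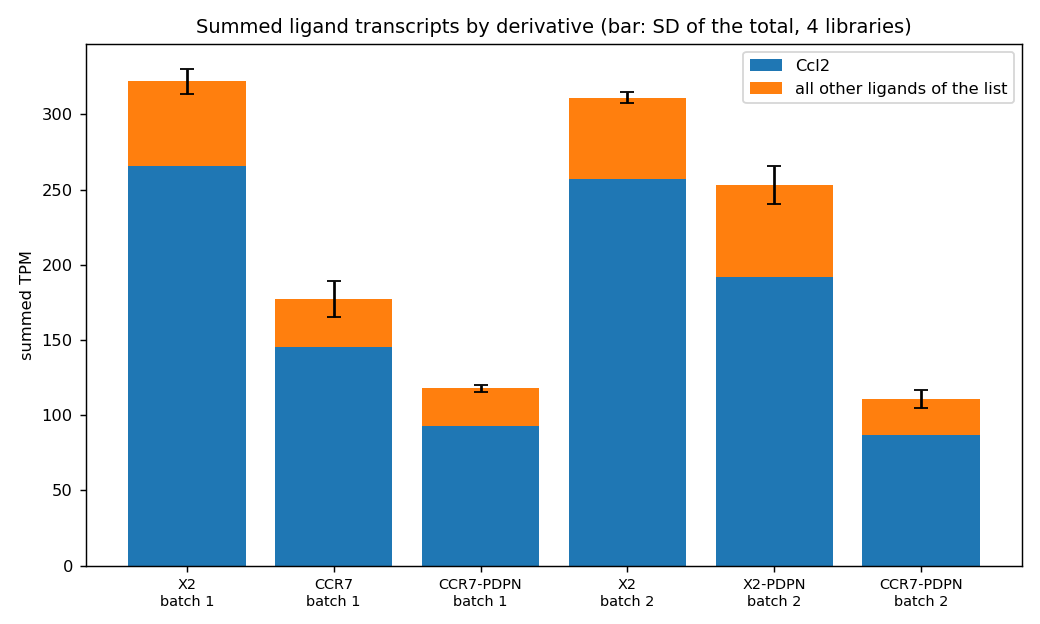
Summed TPM of 38 chemokine ligands on the y axis for each derivative and batch on the x axis, with Ccl2 in blue, the other ligands in orange and the SD of the total over 4 libraries as error bars. The total falls from 322 TPM in X2 to 118 TPM in CCR7-PDPN of batch 1, and Ccl2 is the larger part of every bar.

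Of the 9 ligands, 7 had at least 1 read in batch 1 and 6 had a row in batch 2. Cxcl5, an attractant of neutrophils through CXCR2, and Cxcl12, the ligand of CXCR4, had 0 reads in all 12 libraries of batch 1. A count of 0 allows at most 3 counts of a library, which is 0.135 CPM in the shallowest library. Cxcl1, also a CXCR2 ligand, had 0 to 2 reads in a library. These 3 genes had no row in batch 2 and were not detected there by that rule. Cxcl16, the ligand of CXCR6, was close to this floor, with 3 to 20 reads in a library.

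The genes lie on few chromosomes (GRCm38). Ccl2 (ENSMUSG00000035385, chr11:82035571-82037453, + strand) and Ccl7 (ENSMUSG00000035373, chr11:82045712-82047525, + strand) are 8.26 kb apart in the CC ligand cluster, and Ccl5 (ENSMUSG00000035042, chr11:83525778-83530518, − strand) lies further along. Cxcl10 (ENSMUSG00000034855, chr5:92346638-92348889, − strand) shares its chromosome with Cxcl1 (chr5:90891241-90893115) and Cxcl5 (chr5:90759360-90761624). Cx3cl1 (ENSMUSG00000031778) is at chr8:94772009-94782427, Cxcl12 at chr6:117168535-117181367 and Cxcl16 at chr11:70453983-70459984. No stretch of 75 bases, the read length, in the transcripts of Ccl2, Ccl5, Ccl7 or Cx3cl1 was found in a transcript of another gene. For Cxcl10, 2.47% of such stretches were shared with Art3, which itself had at most 2 reads in a batch 1 library, and for Cxcl16 15.4% were shared with Zmynd15, which had at most 3.

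The comparison of CCR7 with X2 asks how cells that carry the receptor and lack PDPN differ from the vector control. The transgene and the sort against PDPN cannot be told apart in it. Ccl2 and Ccl7, the ligands of CCR2, fell together, with the larger change in Ccl7. Cx3cl1 fell less, and the difference of Cxcl10 did not pass the test. A gene is said to have changed where its adjusted p was under 0.05 in edgeR's quasi-likelihood test, adjusted by Benjamini and Hochberg's method over all genes tested, and to be past the threshold where, in addition, its log2 fold change exceeded 1 in either direction.

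Ccl7 was 7.24, 6.63, 7.31 and 6.98 CPM in the X2 libraries of batch 1 and 1.43, 2.12, 1.74 and 1.8 CPM in the CCR7 libraries. The groups were far apart, with a log2 fold change of -2.0 (SE 0.13, edgeR adjusted p 4.6e-11). Ccl2 was 78.6, 79.8, 83.1 and 81.4 CPM in X2 and 40.2, 47.5, 44.4 and 44.4 CPM in CCR7. The libraries again did not overlap, and the log2 fold change was -0.87 (SE 0.04, edgeR adjusted p 4.0e-13). The 95% interval of Ccl7 (-2.26 to -1.74) lay wholly below that of Ccl2 (-0.96 to -0.79), its neighbour in the cluster.

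Cx3cl1 was 3.43, 3.38, 2.94 and 3.3 CPM in X2 and 2.32, 2.44, 2.13 and 2.21 CPM in CCR7, with no overlap and a log2 fold change of -0.52 (SE 0.12, edgeR adjusted p 9.4e-04). Ccl5 was 2.17, 2.47, 2.85 and 2.62 CPM in X2 and 2.11, 2.44, 1.53 and 1.76 in CCR7. Its libraries overlapped, and the log2 fold change of -0.37 (SE 0.15) had an edgeR adjusted p of 0.052. Without X2 replicate 1, CCR7 replicate 1 or CCR7 replicate 2, that adjusted p was 0.034, 0.039 or 0.015 by edgeR. Cxcl10 averaged 2.48 ± 0.192 CPM in X2 and 2.33 ± 0.605 in CCR7 (SD, n = 4), a log2 fold change of -0.08 with a 95% interval from -0.40 to 0.23. Of the 5 ligands tested, 3 changed, all of them downwards, where 49.3% of all genes tested changed, and 1 was past the threshold, where 6.48% of all genes were. The median log2 fold change was -0.52 over the ligands tested and 0.00 over all genes.

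**Figure D2:**
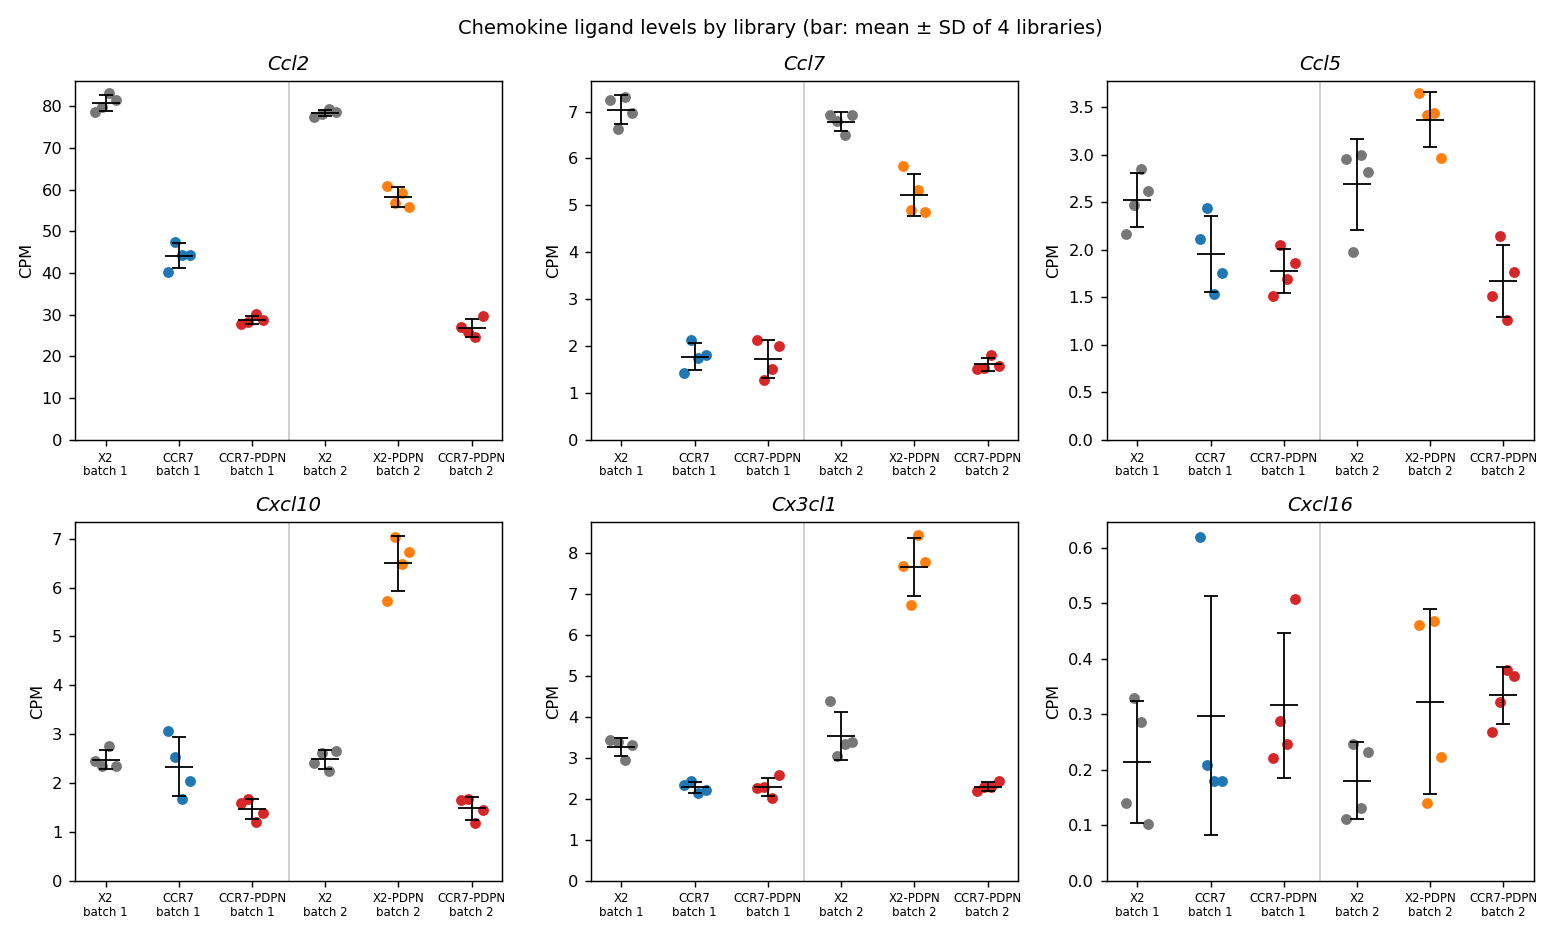
CPM on linear y axes from 0 for 6 ligands in every library (points), by derivative and batch on the x axis, with the mean and SD of 4 libraries in black. Ccl2 and Ccl7 were highest in X2 in both batches, Cxcl10 and Cx3cl1 were highest in X2-PDPN, and Cxcl16 reached at most 0.62 CPM.

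Within batch 1, CCR7-PDPN against CCR7 asks what differs between the PDPN-positive and PDPN-negative sorts of the same transduced cells. Ccl2 and Cxcl10 were lower in the PDPN-positive cells, whereas the intervals of Ccl7 and Cx3cl1 were centred near 0. Ccl2 was 27.8, 28.2, 30.1 and 28.8 CPM in CCR7-PDPN, below every CCR7 library, with a log2 fold change of -0.62 (SE 0.05, edgeR adjusted p 1.5e-09). Cxcl10 was 1.58, 1.67, 1.2 and 1.39 CPM in CCR7-PDPN and 3.07, 2.54, 1.68 and 2.03 CPM in CCR7. The highest CCR7-PDPN library lay just under the lowest CCR7 library, and the log2 fold change was -0.68 (SE 0.18, edgeR adjusted p 0.0039).

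Ccl7 averaged 1.73 ± 0.405 CPM in CCR7-PDPN and 1.77 ± 0.287 in CCR7, a log2 fold change of -0.02 with a 95% interval from -0.34 to 0.30. Cx3cl1 averaged 2.28 ± 0.232 and 2.28 ± 0.133 CPM, and its interval ran from -0.24 to 0.25. Ccl5 averaged 1.78 ± 0.231 and 1.96 ± 0.397 CPM, with an interval from -0.46 to 0.18. A 2-fold difference lies outside all 3 intervals. Of the 5 ligands tested, 2 changed, where 41.6% of all genes tested changed, and 0 were past the threshold, where 3.27% of all genes were. The median was -0.14 over the ligands tested and 0.00 over all genes.

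X2-PDPN against X2 in batch 2 compares PDPN-positive cells without transduced CCR7 with the vector control population. The paper describes no sort against PDPN for X2, so the reference differs from that of the comparison above. Here the ligands parted. Cxcl10 and Cx3cl1 more than doubled, while Ccl2 and Ccl7 fell by less than they did in CCR7. Cxcl10 was 2.41, 2.62, 2.25 and 2.65 CPM in X2 and 5.73, 7.04, 6.49 and 6.72 CPM in X2-PDPN. Every X2-PDPN library was above every X2 library, and the log2 fold change was 1.39 (SE 0.11, edgeR adjusted p 1.4e-14). Cx3cl1 was 4.37, 3.04, 3.33 and 3.38 CPM in X2 and 7.67, 6.71, 8.43 and 7.76 CPM in X2-PDPN. It also separated fully, with a log2 fold change of 1.11 (SE 0.10, edgeR adjusted p 8.8e-13).

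Ccl2 was 77.5, 78.1, 79.2 and 78.5 CPM in X2 of batch 2 and 60.9, 56.8, 59.3 and 55.8 CPM in X2-PDPN, a log2 fold change of -0.43 (SE 0.04, edgeR adjusted p 3.5e-13). Ccl7 was 6.93, 6.79, 6.5 and 6.92 CPM in X2 and 5.83, 4.9, 5.32 and 4.86 CPM in X2-PDPN, a log2 fold change of -0.38 (SE 0.09, edgeR adjusted p 3.4e-04). Neither gene overlapped between the groups. Ccl5 was 2.96, 1.98, 3.0 and 2.82 CPM in X2 and 3.65, 3.42, 3.44 and 2.97 CPM in X2-PDPN, with overlapping libraries, a log2 fold change of 0.33 (SE 0.14) and an edgeR adjusted p of 0.038. This call was lost with DESeq2 (adjusted p 0.076) and without X2 replicate 2 or X2-PDPN replicate 1, 2 or 3 (edgeR adjusted p 0.22, 0.1, 0.071 and 0.067). Of the 6 ligands tested in batch 2, 5 changed, 3 upwards and 2 downwards, where 56.8% of all genes tested changed, and 2 were past the threshold, where 5.05% of all genes were. The median was 0.56 over the ligands and 0.00 over all genes.

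The RNA comes from whole cultures, so that more cells making a ligand and more ligand RNA per cell cannot be told apart. Of the genes tested, the nearest on either side of Cxcl10 (Sdad1 at 36.2 kb and Nup54 at 66.7 kb) had log2 fold changes of -0.27 and -0.23 in X2-PDPN against X2. Those nearest to Cx3cl1 (Ciapin1 at 37.4 kb and Arl2bp at 97.6 kb) had -0.28 and -0.06. None of these neighbours rose with the ligand beside it. Cxcl9 and Cxcl11, the other ligands of CXCR3, had at most 2 reads in a batch 1 library and no row in batch 2.

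The 250 bases before the start site are shown for Cxcl10, the member with the largest rise, from RefSeq (GRCm38.p6; read 5′ to 3′ on the gene's own strand). Capitals mark a match to any of 5 motifs searched on both strands. These were the NF-kB core GGNNTTTCC, the interferon-stimulated response element core GAAANNGAA, the GAS element TTCNNNGAA, the AP-1 site TGANTCA and the hypoxia response core ACGTG. They occur in 5.82%, 8.56%, 8.3%, 7.81% and 19.6% of 32851 RefSeq promoter windows of 300 bases. No match overlapped another in this window.
Cxcl10 (chr5:92348890-92349139, − strand): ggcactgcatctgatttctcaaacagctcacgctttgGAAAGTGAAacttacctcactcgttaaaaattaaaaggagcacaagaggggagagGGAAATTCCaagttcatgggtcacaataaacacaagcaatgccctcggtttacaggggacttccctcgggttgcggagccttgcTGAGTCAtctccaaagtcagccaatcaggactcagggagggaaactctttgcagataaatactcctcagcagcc

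The interferon-stimulated response element core (GAAAGTGAA) began 213 bases, the NF-kB core (GGAAATTCC, on the other strand) 158 bases and the AP-1 site (TGAGTCA) 74 bases before the start site of Cxcl10. In the same search Cx3cl1, which also rose past the threshold in X2-PDPN against X2, had 0 matches, as did Cxcl12. Cxcl1, which had at most 2 reads in a library, had 2 NF-kB cores and 1 hypoxia response core. Ccl2, Ccl5 and Ccl7 were not searched. A match is a description of the letters, and no binding was measured. The part of these matches in the rise of Cxcl10 was not tested.

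CCR7-PDPN against X2-PDPN in batch 2 compares PDPN-positive cells with and without transduced CCR7. Their mean Pdpn RNA was alike (24.6 ± 0.992 and 25.6 ± 0.367 CPM). The cells were sorted separately from CCR7-transduced and vector control cells, so the transgene and the separate derivation cannot be told apart. Of the 9 ligands, each of the 5 expressed above 1 TPM was lower in CCR7-PDPN and past the threshold. Cxcl10 was 1.65, 1.67, 1.17 and 1.44 CPM in CCR7-PDPN, a log2 fold change of -2.14 (SE 0.12, edgeR adjusted p 2.0e-19). Cx3cl1 was 2.18, 2.28, 2.28 and 2.43 CPM, a log2 fold change of -1.73 (SE 0.11, edgeR adjusted p 8.1e-18). Both ligands were highest in X2-PDPN and, in CCR7-PDPN, below every X2 library of the batch.

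Ccl7 was 1.51, 1.54, 1.8 and 1.58 CPM in CCR7-PDPN of batch 2, a log2 fold change of -1.69 against X2-PDPN (SE 0.12, edgeR adjusted p 1.2e-16). Ccl2 was 27.1, 25.9, 24.7 and 29.6 CPM, a log2 fold change of -1.12 (SE 0.04, edgeR adjusted p 4.4e-26). Ccl5 was 1.51, 2.15, 1.26 and 1.77 CPM, all below the lowest X2-PDPN library, with a log2 fold change of -1.01 (SE 0.15, edgeR adjusted p 1.7e-07). Ccl5 was close to the threshold, and its log2 fold change lay between -1.17 and -0.88 when single libraries were left out. Of the 6 ligands tested, 5 changed and the same 5 were past the threshold, where 63.2% of all genes tested changed and 9.16% were past it. The median was -1.40 over the ligands and 0.00 over all genes.

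CCR7-PDPN and X2 were sequenced in both batches, which gives this comparison a second set of libraries. Ccl2 had a log2 fold change of -1.49 (SE 0.05, edgeR adjusted p 5.9e-17) in batch 1 and -1.55 (SE 0.04, 1.2e-31) in batch 2. Ccl7 had -2.02 (SE 0.13, edgeR adjusted p 1.9e-11) and -2.06 (SE 0.11, 2.4e-20). These were the 2 ligands past the threshold in each batch, where 9.45% of all genes tested were past it in batch 1 and 9.63% in batch 2. Cxcl10 (-0.76 and -0.75), Cx3cl1 (-0.51 and -0.61) and Ccl5 (-0.51 and -0.68) also fell in both, so that 5 ligands changed in each batch, where 60.9% and 64.8% of all genes changed. The level of each ligand in X2 was alike in the batches, at 2.48 CPM in both for Cxcl10 and at 80.7 and 78.3 CPM for Ccl2.

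**Figure D3:**
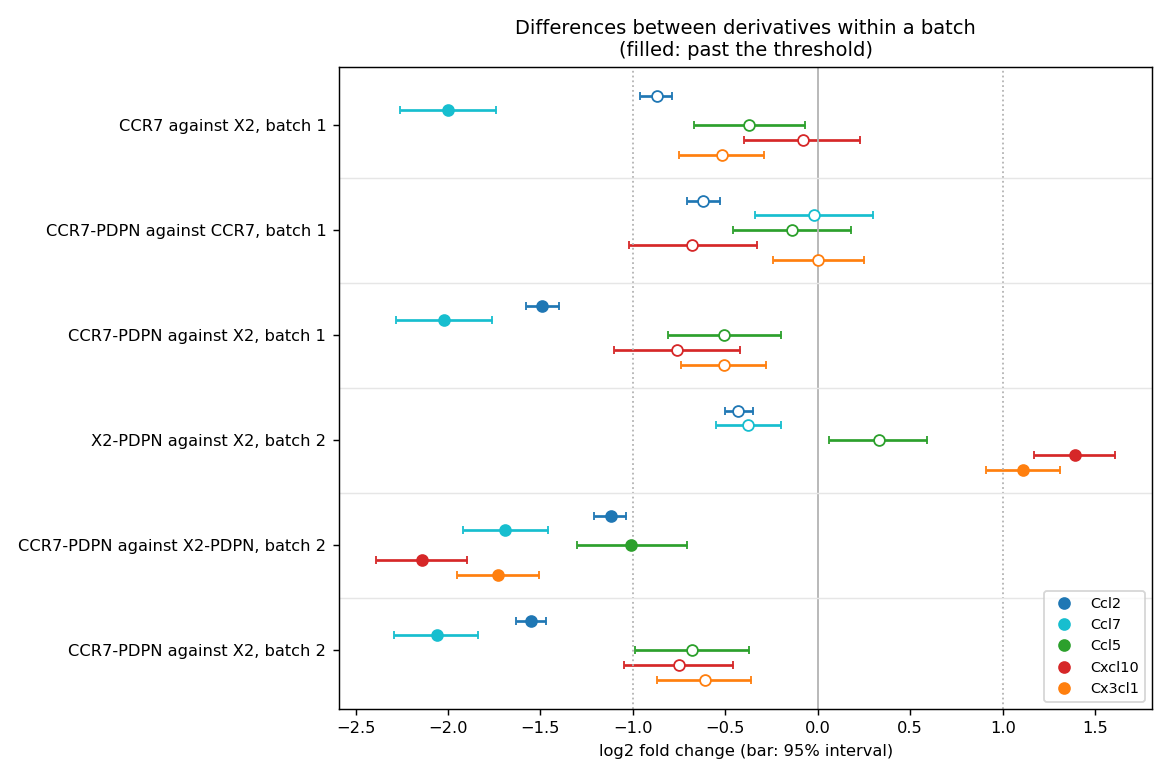
log2 fold changes on the x axis, with 95% intervals as bars, for 5 ligands in the 6 comparisons within a batch listed on the y axis. Filled points are past the threshold (adjusted p under 0.05 and log2 fold change over 1, dotted lines), and only X2-PDPN against X2 has filled points to the right of 0, those of Cxcl10 and Cx3cl1.

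Whether the PDPN-positive sort differed in the same way with and without CCR7 was tested as the log2 fold change of CCR7-PDPN against CCR7 minus that of X2-PDPN against X2. This sets a difference in batch 1 against a difference in batch 2. The reference was a PDPN-negative sort for the CCR7 cells and the vector control population for the X2 cells. CCR7, batch and the kind of reference cells cannot be told apart in it. Cxcl10 differed by -2.06 (SE 0.20, edgeR adjusted p 1.6e-10), since it fell in the CCR7 cells and rose in the vector cells. Cx3cl1 differed by -1.10 (SE 0.16, edgeR adjusted p 7.2e-07), since it rose in the vector cells and gave 0.00 in the CCR7 cells. Ccl2 differed by -0.19 (SE 0.06, edgeR adjusted p 0.016), a small difference that was lost without CCR7 replicate 2 (edgeR adjusted p 0.058). For Ccl7 the difference was 0.36 with a 95% interval from 0.01 to 0.70 (edgeR adjusted p 0.1), and for Ccl5 it was -0.46 (edgeR adjusted p 0.091). These were 3 changed ligands of 6 tested, where 40.8% of all genes changed, and 2 past the threshold, where 5.44% of all genes were.

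Cxcl16 was the least certain of the measured ligands. It averaged 0.214 ± 0.11 CPM in X2, 0.297 ± 0.215 in CCR7 and 0.316 ± 0.131 in CCR7-PDPN of batch 1, and its libraries overlapped. In batch 2 the averages were 0.18 ± 0.0693 CPM for X2, 0.323 ± 0.167 for X2-PDPN and 0.334 ± 0.0513 for CCR7-PDPN. It was too low for the edgeR fit of batch 1, where the lowest p of the two-sided exact permutation tests was 0.286, or 0.571 adjusted over 6 such comparisons. A permutation test of 4 against 4 libraries cannot give a p below 0.0286. CCR7-PDPN against X2 of batch 2 reached that permutation p, which was 0.171 once adjusted, so full separation in 1 comparison alone cannot be called. In batch 2 the log2 fold change against X2 was 0.80 (SE 0.43, edgeR adjusted p 0.11) in X2-PDPN and 0.89 (SE 0.43, edgeR adjusted p 0.069) in CCR7-PDPN. Without X2-PDPN replicate 2, the former was 1.09 with an edgeR adjusted p of 0.029.

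Of the 29 other ligands, 15 had 0 reads in batch 1 and 24 had at most 3 reads in any library of that batch. The ligands of CCR7 itself, Ccl19 and Ccl21a, were among those with 0 reads. Ccl25, which attracts thymocytes and gut T cells through CCR9, was the other ligand above 1 TPM. Ccl25 averaged 6.78 ± 0.521 CPM in X2, 14.1 ± 0.869 in CCR7 and 7.83 ± 0.582 in CCR7-PDPN of batch 1. It rose by 1.05 (SE 0.08) on the log2 scale from X2 to CCR7 and fell by 0.84 from CCR7 to CCR7-PDPN. In CCR7-PDPN against X2-PDPN of batch 2, Ccl25 gave 0.06 (SE 0.09, edgeR adjusted p 0.61). Of the batch 1 derivatives, CCR7 had the most Ccl25, where X2 had the most Ccl2 and Ccl7. Ccl28, a mucosal ligand, was below 1 TPM and rose by 1.01 on the log2 scale in CCR7 against X2 and by 1.26 in CCR7-PDPN against X2 of batch 2. Of the 3 other ligands tested, 2 rose past the threshold in CCR7 against X2, these being Ccl25 and Ccl28, where 6.48% of all genes were past it in either direction.

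None of the 17 other chemokine receptors reached 1 TPM in a group mean, 9 had 0 reads in batch 1 and 0 were tested. The receptors for the ligands made here were among the low ones: Ccr2, Cx3cr1 and Cxcr3 averaged at most 0.00484, 0.0127 and 0.0349 TPM in a batch 1 group. Of 5 atypical receptors, which bind ligands without classical signalling, only Ackr3 reached 1 TPM. Ackr3, which scavenges Cxcl12, averaged 12.3 ± 0.52 CPM in X2, 6.33 ± 0.632 in CCR7 and 4.82 ± 0.633 in CCR7-PDPN of batch 1. In batch 2, X2 averaged 12.7 ± 0.54 CPM, X2-PDPN 11.8 ± 0.802 and CCR7-PDPN 4.71 ± 0.742. Its log2 fold change against X2 was -0.97 (SE 0.09) in CCR7, -1.35 and -1.42 (SE 0.09 each) in CCR7-PDPN of either batch and -0.09 (SE 0.07) in X2-PDPN.

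The proteases that shed or trim chemokines were all tested, 7 of 7. Adam10 and Adam17, which release Cx3cl1 and Cxcl16, differed by 0.73 and -0.08 on the log2 scale between CCR7 and X2, and by 0.32 and 0.31 between X2-PDPN and X2. The matrix metalloproteinases Mmp2 and Mmp3 fell past the threshold in CCR7 against X2, by 1.53 and 2.05 on the log2 scale. Their means were 1.13 and 1.76 CPM in X2 and 0.383 and 0.424 CPM in CCR7. In X2-PDPN against X2, Mmp2 fell by 2.22 and Mmp3 by 0.67. Over the list, 3 rose and 4 fell in CCR7 against X2, with a median of -0.08. Of all genes, 49.3% changed and 6.48% were past the threshold there. In X2-PDPN against X2, 3 rose and 3 fell, with a median of -0.06, where 56.8% of all genes changed.

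NF-kB, the transcription factor that many inflammatory signals share, is a known activator of Ccl2, Ccl5, Cxcl10 and Cx3cl1. Of its 14 subunits, inhibitors and kinases, 10 fell and 1 rose in CCR7 against X2, with a median of -0.27 against 0.00 over all genes, and 0 were past the threshold. Of all genes, 49.3% changed and 6.48% were past the threshold in that comparison. Relb fell by 0.44, Nfkb2 by 0.43 and Tnfaip3, a feedback inhibitor, by 0.81 on the log2 scale. In X2-PDPN against X2, 5 rose and 4 fell, with a median of 0.00, where 56.8% of all genes changed. Nfkbiz (0.56), Nfkbie (0.45), Nfkb1 (0.21), Nfkbia (0.19) and Relb (0.18) rose, and Nfkbib (-0.44), Ikbkb (-0.28), Chuk (-0.17) and Rela (-0.16) fell. In CCR7-PDPN against X2-PDPN, 9 fell and 2 rose, with a median of -0.27, where 63.2% of all genes changed. Tnfaip3 alone was past the threshold there, at -1.16, where 9.16% of all genes were. In CCR7-PDPN against CCR7, where Ccl2 fell by 0.62 and Cxcl10 by 0.68, 2 rose and 4 fell. The median there was -0.02, and 41.6% of all genes changed. In CCR7-PDPN against X2, 10 fell in batch 1 and 11 in batch 2, and 0 rose, where 60.9% and 64.8% of all genes changed.

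Cxcl10 is also a target of interferon signalling, and its transcription factors moved with Cxcl10 in some comparisons and not in others. In X2-PDPN against X2, where Cxcl10 rose, Irf7 fell by 2.72 (SE 0.10), Irf9 by 1.42 (SE 0.07) and Stat2 by 0.42 (SE 0.04) on the log2 scale, all with an edgeR adjusted p under the limit of 0.05. Irf8 rose by 0.66, and Irf1, Irf2 and Irf3 gave 0.02, 0.04 and -0.03. Irf8 rose in the other comparisons as well, by 0.38 in CCR7 against X2 and by 0.22 in CCR7-PDPN against X2-PDPN. It rose by 0.43 in CCR7-PDPN against CCR7, and by 0.81 and 0.87 in CCR7-PDPN against X2 of batches 1 and 2. In CCR7 against X2, where Cxcl10 gave -0.08, Irf7 fell by 1.23 and Irf9 by 1.14. In CCR7-PDPN against X2-PDPN, where Cxcl10 fell by 2.14, Irf9 fell by 0.46 (SE 0.09), while Irf7 gave 0.16 and Irf1 0.01. In CCR7-PDPN against CCR7, Cxcl10 fell by 0.68, Irf7 by 1.42 and Irf9 by 0.64, while Stat2 rose by 0.26. In CCR7-PDPN against X2, where Cxcl10 fell by 0.76 and 0.75 in batches 1 and 2, Irf7 fell by 2.65 and 2.56, Irf9 by 1.78 and 1.87 and Stat2 by 0.33 and 0.36. Of the 7 factors, 5 fell and 1 rose in CCR7 against X2, 3 fell and 1 rose in X2-PDPN against X2, and 1 fell and 1 rose in CCR7-PDPN against X2-PDPN. The shares of all genes that changed were 49.3%, 56.8% and 63.2%.

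**Figure D4:**
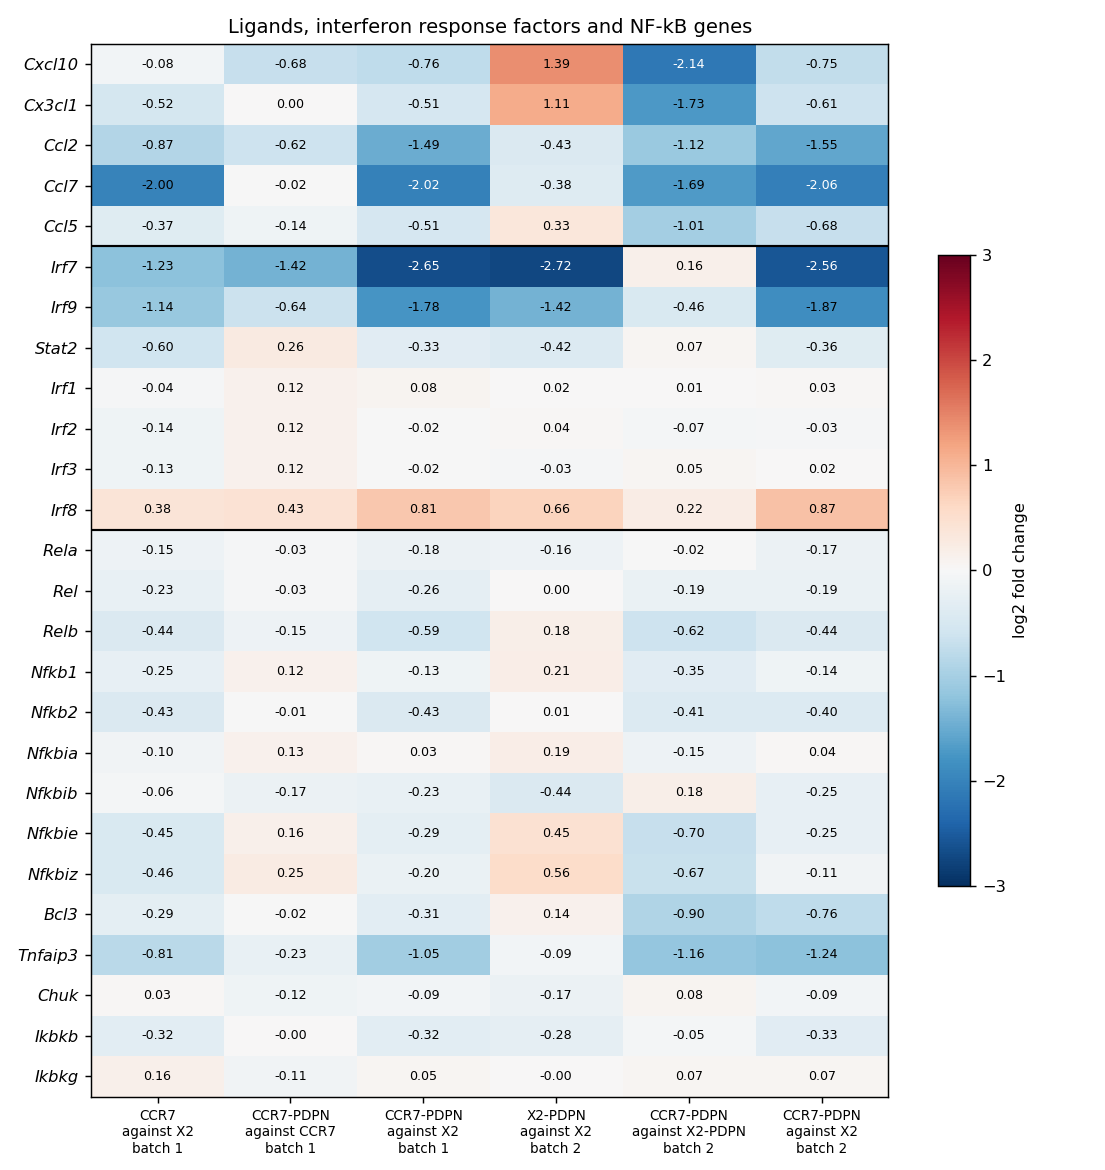
log2 fold change by colour, with its value printed in each cell, for 5 ligands (top), 7 interferon response factors (middle) and 14 NF-kB genes (bottom) in rows and the 6 comparisons within a batch in columns. In X2-PDPN against X2, Cxcl10 (1.39) and Cx3cl1 (1.11) are above 0 while Irf7 (-2.72) and Irf9 (-1.42) are below it.

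Of 21 cytokines, Toll-like receptors and cytokine receptors that lie upstream of these ligands, 13 were tested in batch 1 and 14 in batch 2. Tnf, a strong inducer of Ccl2 and Cxcl10, fell by 1.46 (SE 0.29) on the log2 scale in CCR7 against X2, from 0.745 to 0.263 CPM. Ccl2 fell by 0.87 and Cxcl10 gave -0.08 in that comparison. In X2-PDPN against X2, Tnf gave -0.16 (SE 0.25). It gave 0.08 (SE 0.34) in CCR7-PDPN against CCR7, where Ccl2 fell by 0.62 and Cxcl10 by 0.68. Tlr2, a receptor for bacterial lipopeptides, fell by 1.44 (SE 0.15) in CCR7 and by 0.98 (SE 0.13) in X2-PDPN. In CCR7-PDPN against X2, Tlr2 fell by 2.75 in batch 1 and by 2.74 in batch 2, and Tnf by 1.38 and 1.40. Il33, an alarmin cytokine tested in batch 2, fell by 1.05 (SE 0.36) in CCR7-PDPN against X2-PDPN, from 0.536 to 0.249 CPM. In CCR7 against X2, 4 members of this list rose and 5 fell, with a median of -0.06, where 49.3% of all genes changed. Those that rose were Ifngr2 (0.39), Tlr4 (0.33), Ifnar1 (0.14) and Il6st (0.12). In X2-PDPN against X2, 2 rose and 5 fell, where 56.8% of all genes changed. In CCR7-PDPN against X2-PDPN, 5 rose and 6 fell, where 63.2% of all genes changed.

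Some markers of other cell types differed between the derivatives, and not all of them in the direction of the ligands. Of the 7 leukocyte markers only Lyz2 and Cd79a reached 1 TPM, and the list summed to between 19.2 and 22.6 TPM in the X2 libraries of batch 1, 10.1 and 12.7 in CCR7, and 8.74 and 11.7 in CCR7-PDPN. In batch 2 the sums lay between 20.7 and 25 TPM in X2, 23.2 and 24.9 in X2-PDPN, and 8.67 and 9.47 in CCR7-PDPN. Lyz2, the lysozyme of myeloid cells, fell by 1.88 (SE 0.13) on the log2 scale in CCR7 against X2 and gave -0.19 (SE 0.09) in X2-PDPN against X2. Cd79a, a part of the B cell receptor, rose by 2.21 and 1.73 in the same comparisons. Ptprc, Itgam, Adgre1 and Csf1r, which define leukocytes and macrophages, averaged at most 0.137 TPM in a group of batch 1. Endothelial markers summed to at most 1.41 TPM in any library. In X2-PDPN against X2, Pecam1 rose by 1.14 (SE 0.38, edgeR adjusted p 0.0095) on the log2 scale, from 0.215 to 0.493 CPM, and Cdh5 fell by 1.48 (SE 0.53, edgeR adjusted p 0.016), from 0.255 to 0.0959 CPM. In CCR7-PDPN against X2-PDPN, Cdh5 rose by 2.44 (SE 0.46, edgeR adjusted p 1.2e-05) and Pecam1 gave -0.66 (SE 0.36). Of the fibroblast and pericyte markers, Pdgfra and Pdgfrb were expressed, the list summing to between 93.8 and 123 TPM, while Lum and Thy1 had 0 reads in batch 1. The part of these markers in the ligand differences was not tested.

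For each ligand, the genes with the most similar pattern over the 24 libraries were found among 13029 genes tested in both batches, by Pearson's r of log2 CPM relative to the X2 mean of the same batch. These values describe the pattern over 4 derivatives, since libraries of a group lie together, and carry no test. For Ccl2 they were Gpnmb (r of 0.994) and Pak1 (0.993), and for Ccl7 Rtraf (0.986) and Gatm (0.985). For Cxcl10 they were Chst14 (0.96) and Cks1b (0.956), for Cx3cl1 Gas7 (0.975) and Phox2a (0.971), and for Ccl5 Helb (0.886). No other chemokine ligand was among the genes given for any member. Between the ligands themselves, r was 0.93 for Ccl2 with Ccl7 and 0.91 for Cxcl10 with Cx3cl1. The other pairs of these ligands lay between 0.56 and 0.81.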

How the data were processed

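Polyadenylated RNA was sequenced from TruSeq Stranded mRNA libraries as single-end reads of 75 bases on an Illumina NextSeq. Reads were mapped to GRCm38 (mm10). The authors deposited raw counts per Ensembl gene in a table per batch, named for featureCounts in the labels; versions and the strand setting are not given in the sources used here. The batch 2 table had been filtered by a rule not stated: each of its genes reached 10 counts in some library, and 682 genes that did so in batch 1 were absent.

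Counts were tested within each batch, with its 3 groups in the fit, by edgeR 4.0.16 (glmQLFit with robust estimation and glmQLFTest, TMM factors, filterByExpr) in R 4.3.3, on 13261 genes in batch 1 and 13314 in batch 2. The difference of differences used 13690 genes, 24 libraries and 6 groups. CPM use TMM-scaled library sizes, and TPM use the deposited gene lengths. TMM factors lay between 0.9859 and 1.017, and the biological coefficient of variation was 0.0471 and 0.0322. Intervals are log2 fold change ± the normal quantile times SE. The fits were tested on simulated data. Alternatives were DESeq2 1.42.0, RLE factors, other filters, 2 groups in the fit, a replicate block, an additive batch term and single libraries left out.

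Genes named beyond the 9 ligands are those of the gene lists past the threshold in a comparison, ligands and receptors reaching 1 TPM, the 2 genes most like each ligand whose log2 CPM averaged 1 or more, and Ccr7 and Pdpn. Others were named after their values were seen. The ligands and lists were chosen with earlier results of these data known. A few genes that these rules select are not reported here.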

Additional observations from a re-analysis of the deposited data

Results flagged for a closer look

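The difference that goes with PDPN was unlike with and without CCR7 for 3 of the 6 ligands tested, where 40.8% of all genes changed. This is the test of the difference of differences (edgeR, adjusted p under 0.05). CCR7, batch and the kind of reference cells cannot be told apart in it. Cxcl10 differed by -2.06 and Cx3cl1 by -1.10 on the log2 scale. Ccl2 differed by -0.19, a call that was lost without CCR7 replicate 2 (edgeR adjusted p 0.058).

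A library far from the others of its group, by Dixon's test at the 95% level, was found in 2 of the 39 groups of 4 libraries that were searched, and chance gives about 1 in 20. Cxcl16 was 0.62 CPM in CCR7 replicate 1 of batch 1 and between 0.18 and 0.209 CPM in the other 3 libraries. Cxcl1 was 0.0412 CPM in X2 replicate 2 of batch 1, which is 1 read, and 0 in the other 3.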

How the results depend on the processing

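Log2 fold changes of the tested ligands were recomputed under the alternatives, giving 772 values, of which 748 kept their direction and their side of an adjusted p of 0.05. The count of ligands past the threshold or changed stayed within 1.5 times its value in all 7 comparisons; in CCR7-PDPN against X2-PDPN it was 4 in place of 5 without the filter on low counts and without any of 5 single libraries, since Ccl5 then fell short of a log2 fold change of 1. With no filter on low counts, 1891 genes in place of 1253 were past the threshold in CCR7-PDPN against X2 of batch 1. The 10 changes of direction all concerned ligands that did not pass the test. With single libraries left out, Cxcl10 in CCR7 against X2 lay between -0.26 and 0.06, Ccl7 and Cx3cl1 in CCR7-PDPN against CCR7 between -0.15 and 0.10 and between -0.055 and 0.059, and Cxcl16 in CCR7-PDPN against X2-PDPN between -0.20 and 0.33. Other losses and gains of a call concerned Ccl2, Ccl5, Ccl7 and Cxcl16: the additive batch term gave Ccl5 a difference of differences of -0.54 (edgeR adjusted p 0.017), and Ccl7 gained the same call without CCR7-PDPN replicate 2 (0.026) or CCR7 replicate 2 (0.045), as Ccl5 did without CCR7 replicate 3 (0.035). The cause was not tested.

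Replicate numbers are shared by the groups of a batch, but libraries of the same number did not deviate together: of 12 pairs in each batch, 0 in batch 1 and 1 in batch 2 had a correlation over 0.1 (range -0.12 to 0.0503 and -0.0408 to 0.106). With the replicate block, 854 in place of 859 genes were past the threshold in CCR7 against X2 and 671 in place of 673 in X2-PDPN against X2, the ligands past the threshold kept their number in each comparison, and Cx3cl1 in CCR7-PDPN against CCR7 was -0.003. Depth limits Cxcl16 and Cxcl1, which had at most 20 and 2 reads in a library.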
